A study of Mus musculus with 6 samples.

Results

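Axon guidance ligands and receptors were followed in mouse primary cortical neurons depleted of Opa1, the dynamin-like protein that joins inner mitochondrial membranes and keeps cristae in shape. The genes were chosen by symbol: protein-coding semaphorins, plexins, neuropilins, Eph receptors, ephrins, netrins and netrin-G proteins, Unc5 receptors, Robo receptors and Slits, with Dcc, Neo1, Rgma, Rgmb and Draxin. This gave 75 of the 55471 genes in the count table, 40 ligands and 35 receptors. The filter on low counts passed 71 of them, 38 ligands and 33 receptors. The 4 that did not pass were Sema3g, Plxnb3, Ntn5 and Robo4, whose counts per library were between 4 and 30, 1 and 4, 0 and 3, and 0 and 2.

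The neurons came from embryonic cortices of CD1 mice, taken by embryonic day 15. All cultures were kept with 2 uM Ara-C, which stops dividing cells, and all were transduced with lentivirus on day 6 and harvested for RNA on day 11. In the control group the virus carried a control short hairpin RNA (shControl, labelled wild type), and in the other group a hairpin directed against Opa1 (shOpa1, labelled as an Opa1 knock-down). Both groups therefore hold cells that carry a virus and a hairpin, and the hairpin sequences are not given in the sources used here. Each group had 3 libraries of polyadenylated RNA, described as biological replicates and numbered 1 to 3, so the p-values rest on the spread among these 6 libraries, part of which may be technical.

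Growing axons and migrating neurons steer by these proteins. Semaphorins signal through plexins, and most of the secreted class 3 semaphorins need neuropilins as co-receptors. Netrins attract through Dcc and Neo1 and repel through the Unc5 receptors, while Slits repel through Robo receptors. Ephrins, which stay on the cell surface, bind Eph receptor tyrosine kinases and can also signal back into the cell that carries them. Many of these genes stay active in postmitotic cortical neurons, where they also act in dendrite growth, synapse formation and cell migration.

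Depth ran from 24676709 to 32961580 counts per library. Opa1 was at 202, 205 and 202 CPM in shControl and 10.2, 8.64 and 8.498 CPM in shOpa1, a drop to 9.10 ± 0.916 from 203 ± 1.54 CPM (SD, n = 3; log2 fold change -4.48, edgeR adjusted p = 2.09e-06). CPM here are counts divided by the TMM-scaled library size, every p-value was adjusted over all 16562 genes tested, and ± beside a log2 fold change is its standard error. Replicate 3 of both groups stood apart from the other 4 libraries, at -29.4 and -30.4 on the second principal component against 13.8 to 16.4, the component with the second largest share of variance. Libraries with the same number also deviated together. Calls come from the fit without the replicate number, and results with that number as a block are given beside many of them.

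In Opa1-depleted neurons, 31 of the 71 members tested fell and 4 rose at an adjusted p under 0.05, and 36 did not pass. Of all genes tested, 20.0% fell and 18.9% rose, 38.9% in all, so the lower calls among the members were above the background and the higher calls below it. The median log2 fold change was -0.45 over the members and -0.01 over all genes tested. Fold changes ran from Draxin, a secreted netrin antagonist that fell 7.67-fold, to Epha2, an Eph receptor kinase that rose 4.64-fold from a low level. The other 3 that rose were Sema3e, Sema4f and Efna5. A change of at least 2-fold together with a call was seen for 15 members downward and 1 upward, against 5.65% and 3.14% of all genes tested.

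The lower libraries were also separate from the controls. In 34 members every shOpa1 library was below every shControl library, against 26.0% of all genes tested, and in 5 members every shOpa1 library was above, against 25.8%. Compared within replicate numbers, 56 members were lower in all 3 pairs, against 38.2% of all genes tested, and 7 were higher in all 3, against 36.6%. With the replicate number as a block the calls went to 50 members lower and 6 higher, beside a background of 30.7% and 28.8%. All 35 members called without the block were also called with it. Since bulk RNA was measured, fewer cells of a type and less RNA per cell cannot be told apart.

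**Figure D1:**
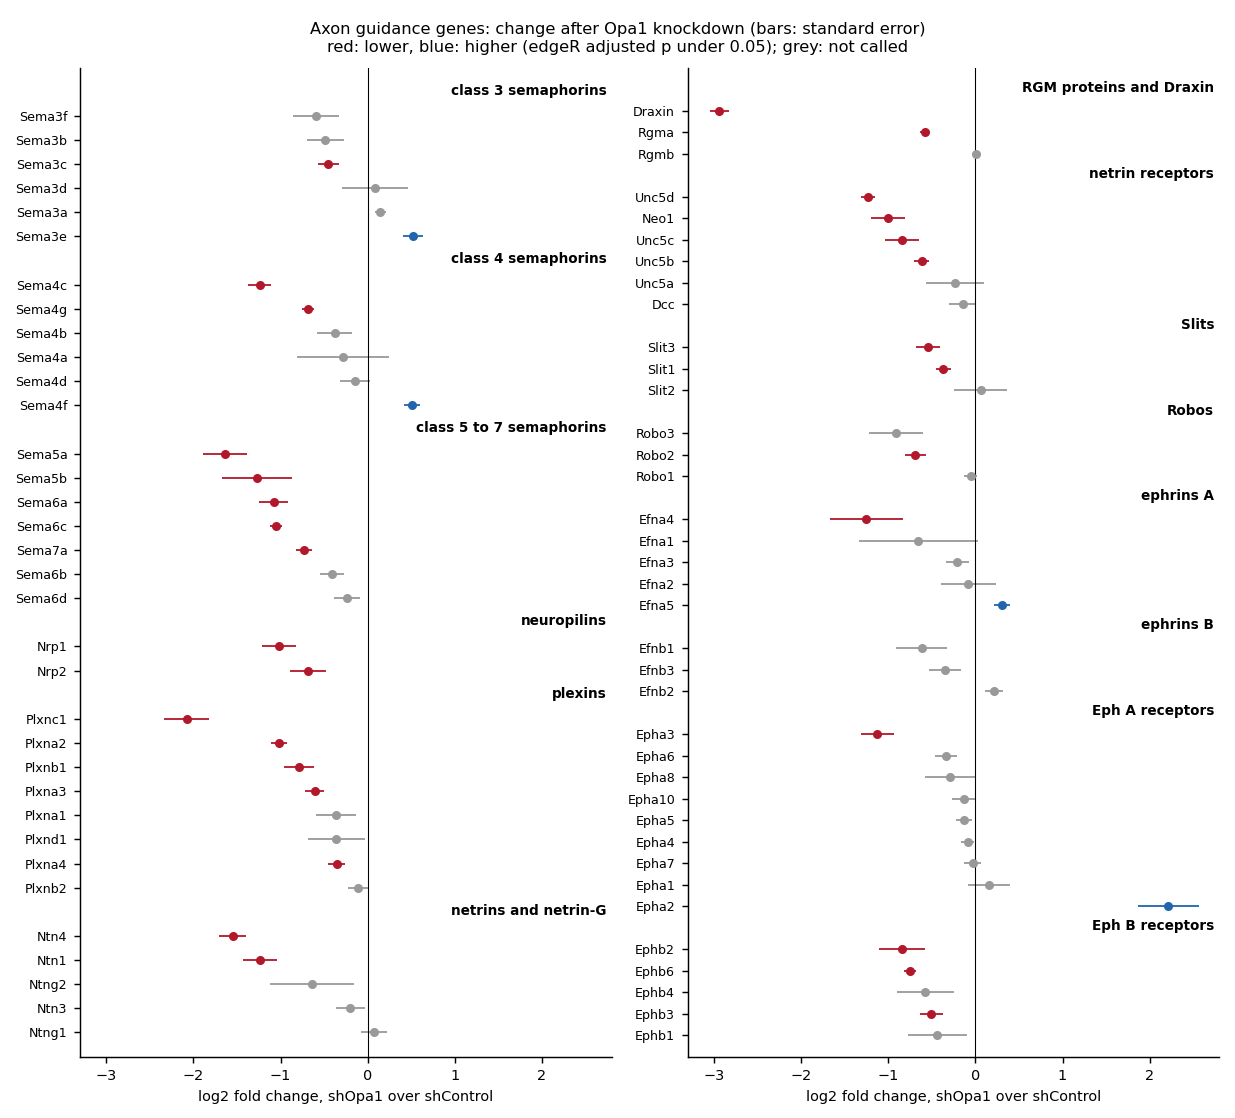
Log2 fold change (shOpa1 against shControl) with its standard error for the 71 members tested, grouped by family. Red points were called lower at an adjusted p of 0.05, blue points higher, and grey points were not called. Of the points, 60 lie below 0, with Draxin at -2.94 and Epha2 at 2.22 as the extremes.

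Ligands and receptors both had medians below 0. Among 38 ligands, 15 fell and 3 rose, with a median log2 fold change of -0.43. Among 33 receptors, 16 fell and 1 rose, with a median of -0.50. In each of the 4 signalling systems some ligands and some receptors fell. These were 8 of 19 semaphorins and 7 of 10 plexins and neuropilins, then 4 of 8 netrins, RGM proteins and Draxin and 4 of 6 netrin receptors. In the Slit system 2 of 3 Slits and 1 of 3 Robos fell, and in the ephrin system 1 of 8 ephrins and 4 of 14 Eph receptors, beside 20.0% of all genes tested. The ephrin system as a whole, with 22.7% of its genes lower, was near that share. The 1 ephrin is Efna4, a low gene whose call was lost in several alternative settings given with its values. Medians were lowest for the netrin receptors at -0.73 and the Robos at -0.69, and nearest to 0 for the ephrins at -0.28 and the Eph receptors at -0.31. Ligands were not compared with receptors by a test, because both come from the same 6 libraries and genes are not replicates.

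**Figure D2:**
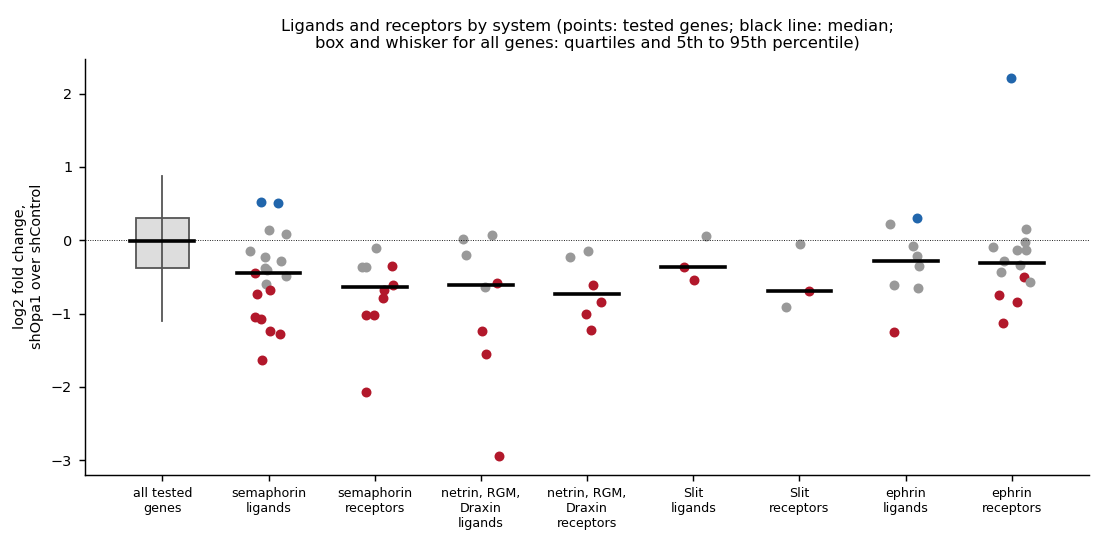
Log2 fold change of each member tested, ligands beside receptors within the semaphorin, ephrin, netrin and Slit systems, with all genes tested as a box for reference. Medians of ligands and receptors are below 0 in each of the 4 systems, from -0.28 for ephrins to -0.73 for netrin receptors.

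Markers of several cell types moved in the same direction as the members, and their part in the results was not tested. Of all genes tested 20.0% were lower and 18.9% higher, or 30.7% and 28.8% with the block. The 7 neuronal markers summed to 6132 to 6593 CPM in shControl and 3841 to 4318 CPM in shOpa1, with 5 of 7 called lower, and 7 with the block. The 3 Cajal-Retzius markers, Reln, Trp73 and Lhx5, all fell, and summed to 1468 to 2208 against 647 to 1043 CPM. Astrocyte markers summed to 252 to 426 against 125 to 189 CPM, with Gja1, S100b and Slc1a2 lower and Gfap higher. S100b was under 1 CPM in every library. Radial glial markers summed to 103 to 182 against 68.2 to 130 CPM, with Hes5, Sox2 and Eomes lower. With the block 7 astrocyte markers were lower and 1 higher, and 4 radial glial markers lower and 1 higher. Interneuron markers summed to 1855 to 1922 against 1504 to 1745 CPM, with 4 of 7 lower and Gad2 higher. Fibroblast markers summed to 9.04 to 20.7 against 5.10 to 50.6 CPM, with none called. The 50.6 CPM was in shOpa1 replicate 1, beside 6.02 and 5.10 CPM in replicates 2 and 3. Microglial markers summed to 5.61 to 8.09 against 3.36 to 4.77 CPM, with Aif1 lower and the other 6 of 7 under 1 CPM in every library. Endothelial and mural markers summed to 6.91 to 8.31 against 4.64 to 6.67 CPM, with Kdr lower and Cdh5 and Cldn5 under 1 CPM in every library. No marker was at 0 in all 6 libraries.

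A short sequence in 3' UTRs is shown here because genes that carry it were lower as a group in these libraries. The 7 bases GAAACTA were picked in a search over these same fold changes, so the values are a description with no test. Among 13850 tested genes with a 3' UTR, 1334 carried it on the sense strand (9.63%), with a median log2 fold change of -0.42 against 0.02 for the others. Among the members 8 of 71 carried it (11.3%): Draxin, Sema5a, Epha3, Neo1, Robo2 and Nrp2, which fell, and Sema3a and Ephb1, which were not called. Carriers had a median of -0.85 and the other 63 members, of which 25 fell, one of -0.38. Carriers and others were not matched for 3' UTR length, and its part in this difference was not tested. Over all tested genes with a 3' UTR, 671 of the 1334 carriers and 2342 of the 12516 others fell. Most of the members that fell do not carry it, and neither do most members in general (63 of 71). Each site is printed with 10 bases to either side, 5' to 3' on the strand of the gene, with the 7 bases in capitals (GRCm38, GENCODE release M21 transcripts):
Draxin (chr4:148099539-148099565, minus strand): accatgtttaGAAACTAaggaaccagg
Sema5a (chr15:32690123-32690149, plus strand): agcttgcagtGAAACTAaccttactct
Epha3 (chr16:63544262-63544288, minus strand): atgagctgatGAAACTAataataaatt
Neo1 (chr9:58875075-58875101, minus strand): tgtgactctgGAAACTAaaccattgtg
Robo2 (chr16:73894190-73894216, minus strand): tagccttcctGAAACTAccactaataa
Nrp2 (chr1:62799246-62799272, plus strand): gtggatgttgGAAACTAtttgaaaatg
Sema3a (chr5:13600909-13600935, plus strand): caatgagagtGAAACTAtacacttcac
Ephb1 site 1 (chr9:102040797-102040823, minus strand): aagtgagctgGAAACTAgggaattttc
Ephb1 site 2 (chr9:102040482-102040508, minus strand): aaaacccaatGAAACTAacttcgtttt

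Semaphorins of classes 5 to 7 are bound to the membrane. Of 7 tested 5 fell and none rose, beside 20.0% and 18.9% of all genes tested. Their median log2 fold change was -1.05, and all 7 were lower with the replicate block. In class 3, 1 of 6 fell and 1 rose (median -0.19), and in class 4, 2 of 6 fell and 1 rose (median -0.33). With the block class 3 had 2 lower and 2 higher, and class 4 had 4 lower and 1 higher. Of all genes tested, 30.7% were lower and 28.8% higher with the block. The difference between classes was not tested.

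Sema5a, a transmembrane semaphorin with thrombospondin repeats, was at 43.8, 49.1 and 82.8 CPM in shControl and 18.6, 20.9 and 17.1 CPM in shOpa1. It fell 3.11-fold (log2 fold change -1.64 ± 0.250, edgeR adjusted p = 0.00323), and the highest shOpa1 library was below the lowest control. Sema5b, its closest relative, was at 29.97, 38.0 and 44.8 CPM in shControl and 8.51, 12.4 and 25.7 CPM in shOpa1 and fell 2.42-fold (log2 fold change -1.27 ± 0.401, edgeR adjusted p = 0.0459). The Sema5b call was lost on leaving out shControl replicate 1, shControl replicate 2, shControl replicate 3, shOpa1 replicate 1 and shOpa1 replicate 2 (adjusted p = 0.0648, 0.0983, 0.106, 0.0837 and 0.140), and also with upper-quartile factors or no low-count filter (adjusted p = 0.0544 and 0.215). The groups did not overlap.

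Sema6a, a transmembrane semaphorin that binds Plxna2 and Plxna4, stood at 145, 154 and 129 CPM in shControl and 78.2, 73.8 and 50.3 CPM in shOpa1 and fell 2.12-fold (log2 fold change -1.08 ± 0.167, edgeR adjusted p = 0.00276). Sema6c was nearly the same in every library of a group, at 104, 114 and 113 CPM in shControl and 52.0, 51.9 and 56.9 CPM in shOpa1 (log2 fold change -1.05 ± 0.0695, edgeR adjusted p = 7.98e-05). Its relatives Sema6b and Sema6d went from 136 ± 16.4 to 103 ± 17.7 CPM (SD, n = 3) and from 123.5 ± 20.6 to 105 ± 16.7 CPM (SD, n = 3), with adjusted p = 0.0551 and 0.261 in edgeR. Both were called lower with the block (edgeR adjusted p = 3.18e-05 and 0.000925), and Sema6b also passed on leaving out shControl replicate 1 or shOpa1 replicate 3 (adjusted p = 0.0434 and 0.0120) and with DESeq2 (adjusted p = 0.0310). Sema7a, the only semaphorin anchored by a lipid, was at 73.0, 77.9 and 66.9 CPM in shControl and 46.9, 45.0 and 39.4 CPM in shOpa1 and fell 1.66-fold (log2 fold change -0.73 ± 0.0913, edgeR adjusted p = 0.00101).

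Class 4 semaphorins, which are transmembrane proteins that signal mainly through B-type plexins, split in direction. Sema4c, a Plxnb2 ligand, was at 40.9, 45.1 and 50.6 CPM in shControl and 17.6, 17.3 and 22.9 CPM in shOpa1 and fell 2.36-fold (log2 fold change -1.24 ± 0.133, edgeR adjusted p = 0.000535). Of its exon bases 7.27% overlap another gene, and since the counting gives no strand option its count over these bases is uncertain. Sema4g, the most abundant class 4 semaphorin per exon length, was at 216, 234 and 216 CPM in shControl and 130.4, 137 and 148 CPM in shOpa1 (log2 fold change -0.68 ± 0.0700, edgeR adjusted p = 0.000444). Sema4f moved the other way: with 54.6, 60.5 and 63.0 CPM in shControl and 76.3, 83.3 and 93.5 CPM in shOpa1, it rose 1.42-fold (log2 fold change 0.51 ± 0.0945, edgeR adjusted p = 0.00515), and its groups did not overlap.

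Sema4a separated the libraries by replicate number more than by hairpin. Its values were 55.5, 54.3 and 137 CPM in shControl and 41.9, 45.1 and 115 CPM in shOpa1, so that both libraries numbered 3 stood above the other 4, and the groups overlapped (log2 fold change -0.29, edgeR adjusted p = 0.703). Within pairs the difference in log2(CPM + 0.5) was -0.40, -0.26 and -0.25, and the block fit called it lower (edgeR adjusted p = 0.000470). Sema4b was also called lower with the block (adjusted p = 0.000566) and, in the fit without it, on leaving out shOpa1 replicate 3 (adjusted p = 0.0122). Sema4d, the classic Plxnb1 ligand, had a log2 fold change of -0.15 and was not called in either fit (edgeR adjusted p = 0.531, 0.0614 with the block).

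Class 3 semaphorins are secreted, and most need a neuropilin. Sema3e, which binds Plxnd1 directly, was at 14.2, 14.2 and 15.9 CPM in shControl and 23.9, 20.5 and 19.2 CPM in shOpa1 and rose 1.43-fold (log2 fold change 0.52 ± 0.110, edgeR adjusted p = 0.00885). Sema3c was at 34.6, 40.7 and 45.1 CPM in shControl and 29.5, 32.2 and 26.3 CPM in shOpa1 and fell 1.37-fold (log2 fold change -0.45 ± 0.118, edgeR adjusted p = 0.0198), a call lost on leaving out shControl replicate 2 and shOpa1 replicate 1 (adjusted p = 0.0661 and 0.0615). Sema3a, the repellent that acts through Nrp1, was at 42.2, 43.0 and 41.7 CPM in shControl and 44.5, 46.4 and 49.4 CPM in shOpa1 (log2 fold change 0.14, edgeR adjusted p = 0.122, 0.0481 with the block). Sema3f, which acts through Nrp2, was at 23.6, 25.9 and 33.1 CPM in shControl and 14.54, 14.2 and 26.0 CPM in shOpa1, and its groups overlapped. It had a log2 fold change of -0.59 and an edgeR adjusted p of 0.119, and was called lower with the block (adjusted p = 0.000273) and on leaving out shOpa1 replicate 3 (adjusted p = 0.00400). Sema3b and Sema3d, both low, were not called in either fit.

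Among the semaphorin receptors Plxnc1, the plexin that binds Sema7a, changed most. Plxnc1 was at 106, 111 and 184 CPM in shControl and 28.1, 27.5 and 39.3 CPM in shOpa1, so the highest knockdown library was below the lowest control. It fell 4.22-fold (log2 fold change -2.08 ± 0.260, edgeR adjusted p = 0.00153), while its ligand Sema7a fell 1.66-fold. Plxnc1 (ENSMUSG00000074785) lies on chromosome 10 from 94790866 to 94944835 on the minus strand (GRCm38).

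Of the 4 A-type plexins 3 fell, beside 20.0% of all genes tested. A-type plexins are the signalling subunits that class 3 and class 6 semaphorins share. Plxna2 was at 273, 302 and 251 CPM in shControl and 139, 125 and 145 CPM in shOpa1 and fell 2.02-fold (log2 fold change -1.01 ± 0.0893, edgeR adjusted p = 0.000245), beside 2.12-fold for its ligand Sema6a. Plxna3 was at 254, 255 and 271 CPM in shControl and 156, 154 and 203 CPM in shOpa1 and fell 1.52-fold (log2 fold change -0.61 ± 0.111, edgeR adjusted p = 0.00479). Plxna4 was at 189, 216 and 173 CPM in shControl and 165, 148 and 138 CPM in shOpa1 and fell 1.28-fold (log2 fold change -0.36 ± 0.101, edgeR adjusted p = 0.0271), a call lost on leaving out shControl replicate 1, shControl replicate 2, shOpa1 replicate 2 and shOpa1 replicate 3 (adjusted p = 0.0643, 0.0828, 0.0891 and 0.0586). Plxna1, with 309, 334 and 464 CPM in shControl and 239, 241 and 379.8 CPM in shOpa1, overlapped between groups and was not called (edgeR adjusted p = 0.268). It was called lower with the block (adjusted p = 3.65e-05) and on leaving out shOpa1 replicate 3 (adjusted p = 0.0433), and 10.7% of its exon bases overlap another gene.

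The Sema4d receptor Plxnb1 was at 88.5, 104 and 102 CPM in shControl and 48.4, 48.5 and 74.0 CPM in shOpa1 and fell 1.73-fold (log2 fold change -0.79 ± 0.176, edgeR adjusted p = 0.0121). With no filter on low counts it was no longer called (edgeR adjusted p = 0.0736). Plxnb2 differed little, with a log2 fold change of -0.11 ± 0.119 and no call in either fit, while its ligands Sema4c and Sema4g both fell. Plxnd1, the Sema3e receptor, was at 129.9, 115 and 69.0 CPM in shControl and 105, 90.1 and 50.1 CPM in shOpa1, and both libraries numbered 3 were lowest in their group. Its log2 fold change of -0.36 was not called (edgeR adjusted p = 0.432), but within pairs it was -0.31, -0.35 and -0.46 and the block fit called it lower (adjusted p = 6.63e-05).

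Both neuropilins fell. Nrp1, the Sema3a co-receptor, was at 37.8, 37.0 and 60.7 CPM in shControl and 22.5, 21.8 and 22.5 CPM in shOpa1 and fell 2.03-fold (log2 fold change -1.02 ± 0.193, edgeR adjusted p = 0.00617). Nrp2, the Sema3f co-receptor, was at 296, 325 and 434 CPM in shControl and 184, 195 and 279 CPM in shOpa1 and fell 1.604-fold (log2 fold change -0.68 ± 0.207, edgeR adjusted p = 0.0403). Its groups did not overlap, but the call was lost on leaving out shControl replicate 2, shControl replicate 3, shOpa1 replicate 1 and shOpa1 replicate 2 (adjusted p = 0.0702, 0.0886, 0.113 and 0.124), and also with upper-quartile factors or no low-count filter (adjusted p = 0.0534 and 0.202). With the block Nrp2 had an edgeR adjusted p of 2.01e-07.

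In the netrin system Draxin had the lowest log2 fold change of all members. Draxin is a secreted repellent that binds Dcc and competes with netrins for it. It was at 25.1, 29.0 and 24.6 CPM in shControl and 3.35, 3.36 and 3.55 CPM in shOpa1 and fell 7.67-fold, from 26.3 ± 2.42 to 3.42 ± 0.110 CPM (SD, n = 3; log2 fold change -2.94 ± 0.108, edgeR adjusted p = 2.29e-05). Draxin (ENSMUSG00000029005) lies on chromosome 4 from 148098437 to 148130698 on the minus strand (GRCm38).

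Netrins themselves fell in 2 of 5 cases counted with the netrin-G proteins, beside 20.0% of all genes tested. Ntn1, the secreted attractant of commissural axons, was at 48.8, 60.01 and 74.5 CPM in shControl and 22.9, 23.0 and 32.1 CPM in shOpa1 and fell 2.35-fold (log2 fold change -1.23 ± 0.193, edgeR adjusted p = 0.00294). Ntn4, a netrin that also binds laminin, was at 8.01, 9.16 and 10.5 CPM in shControl and 2.84, 3.30 and 3.30 CPM in shOpa1 and fell 2.93-fold (log2 fold change -1.55 ± 0.152, edgeR adjusted p = 0.000371). Ntn3 had a log2 fold change of -0.20 and was not called in either fit (edgeR adjusted p = 0.378, 0.0869 with the block).

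The netrin-G proteins are anchored to the axon membrane and bind the synaptic proteins Lrrc4c and Lrrc4 rather than Dcc. Ntng2 was at 86.2, 78.4 and 34.0 CPM in shControl and 54.7, 52.9 and 19.8 CPM in shOpa1, with both libraries numbered 3 far below the others of their group. It was not called (log2 fold change -0.64, edgeR adjusted p = 0.336), but within pairs the log2 difference was -0.65, -0.56 and -0.76 and the block fit called it lower (adjusted p = 2.59e-06). Of its exon bases 14.0% overlap another gene. Ntng1 was at 55.0, 58.1 and 80.3 CPM in shControl and 65.6, 65.0 and 73.1 CPM in shOpa1, with overlapping groups, and was not called with or without the block (edgeR adjusted p = 0.315 and 0.722). It was called higher on leaving out shControl replicate 3 (adjusted p = 0.0467) and in replicates 1 and 2 alone (adjusted p = 0.0155).

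The 2 RGM proteins, lipid-anchored ligands of Neo1 that also bind bone morphogenetic proteins, differed. Rgma was at 152, 163 and 164 CPM in shControl and 106, 109.6 and 105 CPM in shOpa1 and fell 1.49-fold (log2 fold change -0.58 ± 0.0584, edgeR adjusted p = 0.000420). Rgmb was at 248, 249 and 236 CPM in shControl and 252, 252 and 237 CPM in shOpa1, with a log2 fold change of 0.01 ± 0.0564 and overlapping groups (edgeR adjusted p = 0.880). The difference between Rgma and Rgmb was not tested.

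Of 6 netrin receptors 4 fell, beside 20.0% of all genes tested. All 6 were called lower with the block, beside 30.7% of all genes tested. Neo1, which binds netrins and RGM proteins, was at 268, 293 and 389 CPM in shControl and 135, 141 and 197 CPM in shOpa1 and fell 2.01-fold (log2 fold change -1.01 ± 0.193, edgeR adjusted p = 0.00727). It was no longer called with no filter on low counts (edgeR adjusted p = 0.0634). Unc5d, which also binds Flrt2 and marks migrating cortical neurons, was at 92.4, 86.6 and 99.9 CPM in shControl and 38.7, 37.8 and 42.3 CPM in shOpa1 and fell 2.35-fold (log2 fold change -1.23 ± 0.0794, edgeR adjusted p = 7.46e-05). Unc5c was at 63.4, 68.0 and 47.3 CPM in shControl and 38.7, 35.7 and 25.03 CPM in shOpa1 (log2 fold change -0.85 ± 0.197, edgeR adjusted p = 0.0145). Its call was lost on leaving out shControl replicate 2 (adjusted p = 0.0525) and with no filter on low counts (adjusted p = 0.0623).

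Unc5b, a repulsive netrin receptor also known from blood vessels, was at 31.8, 35.9 and 39.01 CPM in shControl and 23.6, 22.5 and 23.5 CPM in shOpa1 and fell 1.53-fold (log2 fold change -0.62 ± 0.0904, edgeR adjusted p = 0.00191). Dcc, the attractive netrin receptor that Draxin also binds, was at 90.1, 94.2 and 73.3 CPM in shControl and 87.4, 83.4 and 61.8 CPM in shOpa1 and was not called (log2 fold change -0.15, edgeR adjusted p = 0.481, 0.0272 with the block). Unc5a was at 56.8, 60.6 and 89.4 CPM in shControl and 41.7, 44.9 and 89.4 CPM in shOpa1, so its groups overlapped and both libraries numbered 3 were highest (edgeR adjusted p = 0.621, 0.0219 with the block).

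Slits are secreted repellents that bind Robo receptors. Slit1 was at 158, 178 and 183 CPM in shControl and 129, 127 and 146 CPM in shOpa1 and fell 1.29-fold (log2 fold change -0.37 ± 0.0822, edgeR adjusted p = 0.0110). Slit3 was at 13.0, 12.7 and 16.9 CPM in shControl and 9.89, 8.88 and 10.5 CPM in shOpa1 and fell 1.46-fold (log2 fold change -0.54 ± 0.140, edgeR adjusted p = 0.0194), a call lost on leaving out shOpa1 replicate 1 and shOpa1 replicate 2 (adjusted p = 0.0569 and 0.0759). Slit2 was at 98.3, 97.5 and 60.4 CPM in shControl and 111, 101 and 55.1 CPM in shOpa1, with replicate 3 lowest in both groups and no call in either fit (edgeR adjusted p = 0.896, 0.643 with the block).

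Of the 3 Robo receptors tested Robo2 was called. Robo2 was at 425, 457 and 358 CPM in shControl and 270.1, 278 and 221 CPM in shOpa1 and fell 1.61-fold (log2 fold change -0.69 ± 0.119, edgeR adjusted p = 0.00388). Robo1, its partner in many cortical tracts, was at 97.8, 99.6 and 114 CPM in shControl and 96.7, 99.1 and 103 CPM in shOpa1, with a log2 fold change of -0.05 ± 0.0748 and an edgeR adjusted p of 0.601. Robo3, which lets commissural axons cross the midline, was low at 2.60, 2.99 and 4.08 CPM in shControl and 1.10, 1.72 and 2.32 CPM in shOpa1 (log2 fold change -0.91, edgeR adjusted p = 0.0517). Robo3 was called lower with the block (adjusted p = 0.000640) and on leaving out shOpa1 replicate 3 (adjusted p = 0.0200). It was also called lower with no low-count filter (adjusted p = 0.0193), with a mean of at least 50 counts (adjusted p = 0.0484), by DESeq2 (adjusted p = 0.0294) and by limma-voom (adjusted p = 0.0434).

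Eph receptors bind ephrins on neighbouring cells, and the 22 genes of this system tested held 5 lower and 2 higher calls, beside 20.0% and 18.9% of all genes tested. The lower calls, 22.7% of the system, were near the background. Of 9 EphA receptors 1 fell and 1 rose, of 5 EphB receptors 3 fell, of 5 ephrins A 1 fell and 1 rose, and of 3 ephrins B none was called. With the block 9 of the 14 Eph receptors were called lower and 1 higher, and 4 of the 8 ephrins lower and 2 higher. Of all genes tested, 30.7% were lower and 28.8% higher in that fit.

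Epha3, a receptor for ephrins A, was at 35.3, 40.8 and 27.8 CPM in shControl and 17.8, 17.5 and 12.4 CPM in shOpa1 and fell 2.18-fold (log2 fold change -1.12 ± 0.186, edgeR adjusted p = 0.00334). Epha2 was at 0.377, 1.01 and 0.705 CPM in shControl and 3.29, 4.00 and 2.54 CPM in shOpa1, the lowest knockdown library standing above the highest control. It rose 4.64-fold (log2 fold change 2.22 ± 0.351, edgeR adjusted p = 0.00261), from 0.697 ± 0.316 to 3.28 ± 0.732 CPM (SD, n = 3). Epha4 and Epha7, abundant in the developing cortex, had log2 fold changes of -0.09 ± 0.0749 and -0.03 ± 0.0963 and were not called in either fit. Epha5, Epha6, Epha8 and Epha10 had log2 fold changes of -0.13, -0.34, -0.29 and -0.13 and were called lower with the block (edgeR adjusted p = 0.0176, 0.00578, 0.0100 and 0.0235). Without the block Epha6 passed on leaving out shControl replicate 3 (adjusted p = 0.0467) and Epha8 did so on leaving out shOpa1 replicate 3 (adjusted p = 0.0366).

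Ephb6, a receptor whose kinase domain is inactive, was at 38.7, 42.0 and 37.9 CPM in shControl and 23.1, 23.7 and 23.8 CPM in shOpa1 and fell 1.68-fold (log2 fold change -0.75 ± 0.0706, edgeR adjusted p = 0.000319). Ephb2, which acts at excitatory synapses as well as in guidance, was at 82.8, 93.3 and 132 CPM in shControl and 46.5, 47.7 and 77.8 CPM in shOpa1 and fell 1.79-fold (log2 fold change -0.84 ± 0.259, edgeR adjusted p = 0.0429). Its groups did not overlap, yet the call was lost on leaving out shControl replicate 2, shControl replicate 3, shOpa1 replicate 1 and shOpa1 replicate 2 (adjusted p = 0.0729, 0.102, 0.121 and 0.132), and also with upper-quartile factors or no low-count filter (adjusted p = 0.0529 and 0.210). Ephb3 was at 13.8, 17.6 and 13.9 CPM in shControl and 9.64, 10.7 and 11.6 CPM in shOpa1 (log2 fold change -0.50 ± 0.132, edgeR adjusted p = 0.0204), and lost its call on leaving out shControl replicate 2, shOpa1 replicate 1 and shOpa1 replicate 2 (adjusted p = 0.0673, 0.0716 and 0.0649). Both Ephb2 and Ephb3 were called lower with the block (edgeR adjusted p = 2.32e-07 and 0.000995). Ephb1 was at 36.2, 35.1 and 61.8 CPM in shControl and 25.3, 24.9 and 48.2 CPM in shOpa1, with both libraries numbered 3 highest, and was called lower with the block (edgeR adjusted p = 5.42e-05, 0.352 without it). The low receptors Ephb4 and Epha1 had log2 fold changes of -0.57 and 0.15 and were called in neither fit.

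Among the ephrins Efna5, a lipid-anchored repellent that binds most EphA receptors, was at 38.4, 42.9 and 45.8 CPM in shControl and 50.7, 50.0 and 56.4 CPM in shOpa1. It rose 1.23-fold (log2 fold change 0.30 ± 0.0876, edgeR adjusted p = 0.0290), a call lost on leaving out shControl replicate 1, shControl replicate 2, shOpa1 replicate 1, shOpa1 replicate 2 and shOpa1 replicate 3 (adjusted p = 0.0960, 0.0822, 0.0664, 0.0552 and 0.0697). Efna4 was low, at 0.755, 1.01 and 0.445 CPM in shControl and 0.290, 0.204 and 0.428 CPM in shOpa1 and fell 2.38-fold (log2 fold change -1.25 ± 0.417, edgeR adjusted p = 0.0488). The Efna4 call was lost on leaving out shControl replicate 1, shControl replicate 2, shOpa1 replicate 1 and shOpa1 replicate 2 (adjusted p = 0.115, 0.174, 0.128 and 0.154), and also under DESeq2 (adjusted p = 0.0926), limma-voom (adjusted p = 0.0568) and upper-quartile scaling (adjusted p = 0.0544). Of its exon bases 10.5% overlap another gene. Efna3 had a log2 fold change of -0.21 and was called lower with the block (adjusted p = 0.00681), and 14.1% of its exon bases overlap another gene. Efna1 and Efna2 had log2 fold changes of -0.66 and -0.08 and were called in neither fit.

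The transmembrane ephrins B moved in opposite directions within pairs. Efnb3, the most abundant member per exon length, was at 524, 592 and 709 CPM in shControl and 398, 426 and 606 CPM in shOpa1. Efnb1 was at 28.3, 31.9 and 46.9 CPM in shControl and 17.0, 20.3 and 32.5 CPM in shOpa1, and neither was called (edgeR adjusted p = 0.175 and 0.141). Efnb2 was at 177, 174 and 148 CPM in shControl and 199, 211 and 169.8 CPM in shOpa1 (edgeR adjusted p = 0.141). With the block Efnb1 and Efnb3 were called lower (adjusted p = 7.99e-06 and 9.12e-05) and Efnb2 higher (adjusted p = 0.00146), and all 3 were also called on leaving out shOpa1 replicate 3 (adjusted p = 0.0264, 0.0159 and 0.0333).

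**Figure D3:**
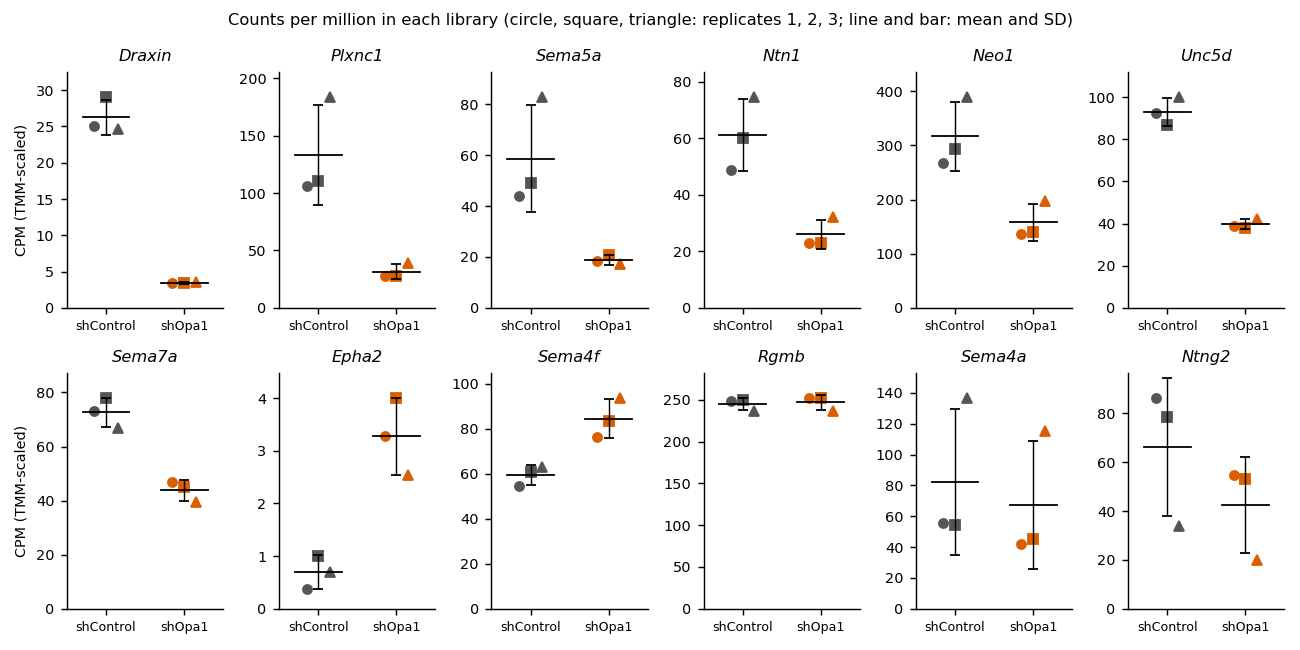
CPM per library of 12 members, with circles, squares and triangles for replicates 1, 2 and 3 and the mean and SD of each group (n = 3). Draxin, Plxnc1, Unc5d and Sema7a separate the groups, Epha2 and Sema4f are higher in shOpa1, Rgmb overlaps, and Sema4a and Ntng2 set replicate 3 apart in both groups.

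The members cover a wide range of levels, and the calls were not limited to one end of it. Levels between genes were compared per kilobase of exon, as CPM divided by exon length. In shControl Efnb3 was the highest member at 191 ± 29.4 CPM per kilobase (SD, n = 3), followed by Plxna1 at 40.7 ± 9.23, Neo1 at 36.3 ± 7.35, Sema6b at 34.4 ± 4.15, Plxna3 at 33.0 ± 1.17 and Rgmb at 31.9 ± 0.960. After Efnb3, each of these differs from the next by less than the SD of the more variable of the pair, so their order is not resolved. Among the 10 members with the highest level per kilobase, Neo1, Plxna3, Nrp2, Slit1, Rgma and Sema4g fell, while Efnb3, Plxna1, Sema6b and Rgmb were not called. Of the 62 members with a mean of at least 10 CPM, 29 fell and 3 rose, beside 25.4% and 24.8% of protein-coding genes at that level.

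**Figure D4:**
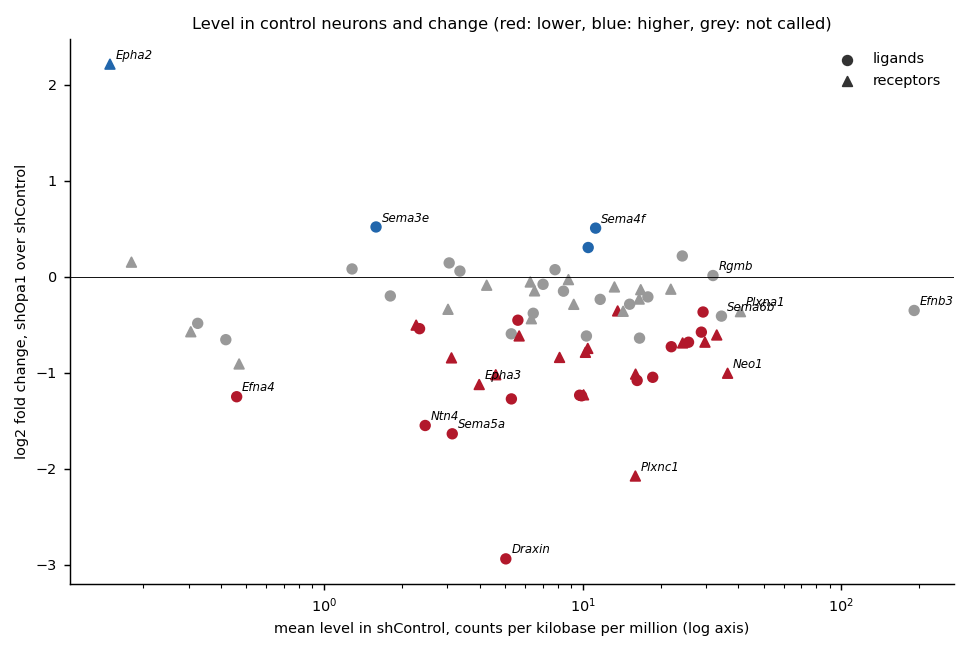
Level in shControl (CPM per kilobase of exon, log axis) against log2 fold change for the 71 members tested. Members called lower lie along the level axis from Efna4 at 0.460 to Neo1 at 36.3 CPM per kilobase, and Epha2 is the 1 point above a log2 fold change of 1.

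Members shared the replicate 3 difference with many other genes. In 7 members, Efna1, Efna2, Efnb1, Ephb1, Ephb2, Unc5a and Sema4a, replicate 3 was at least 1.5-fold above the mean of replicates 1 and 2 in both groups (9.86%, against 3.86% of all genes tested). In 4 members, Ntng2, Sema3d, Plxnd1 and Slit2, it was at least 1.5-fold below in both (5.63%, against 4.06%). Of the members 81.7% differed in the same direction in replicate 3 of both groups, against 72.4% of all genes tested. The median log2 difference over the members was -0.40, -0.49 and -0.34 in pairs 1, 2 and 3, so the members were lower in each pair. Replicates 1 and 2 alone gave 49 members lower and 6 higher, against 26.1% and 24.8% of the genes tested in that fit.

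**Figure D5:**
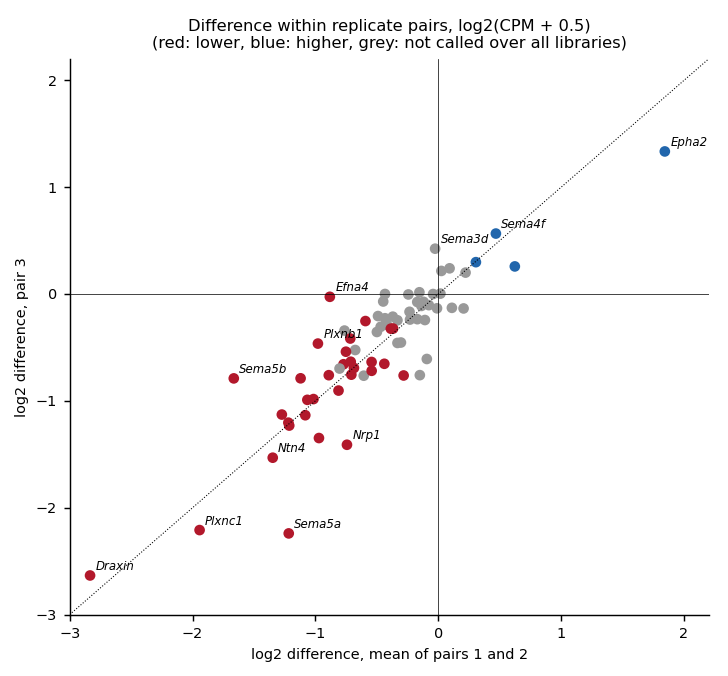
Log2 difference between shOpa1 and shControl in pair 3 against the mean of pairs 1 and 2 for the 71 members, from log2(CPM + 0.5). The medians are -0.34 on the pair 3 axis and -0.44 on the other axis.

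Guidance genes are long, and long genes were called lower more often in these libraries. The median exon length was 7002 bases over the members tested and 4105 over all genes tested. Protein-coding genes with a mean of at least 10 CPM were split into 4 equal classes by length. In the class with the longest exons (7693 bases or more) 33.0% of genes fell, against 17.4% in the class with the shortest. Of the 29 members in the first of these 16 fell, and of 3 in the other none did. In the class with the longest genomic span (68942 bases or more) 35.7% of genes and 19 of 34 members fell. The part of gene length in the members' changes was not tested.

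Downstream of the receptors, 22 of 60 cytoplasmic effectors tested fell and 5 rose, with a median log2 fold change of -0.16, beside 20.0% and 18.9% of all genes tested. The effectors with the smallest p were Srgap1, Srgap2, Vav2 and Ablim1. Srgap1 and Srgap2 are GTPase-activating proteins that bind Robo receptors. Srgap1 was at 183, 188 and 171 CPM in shControl and 72.0, 69.9 and 58.0 CPM in shOpa1 (log2 fold change -1.44 ± 0.0935, edgeR adjusted p = 7.73e-05) and Srgap2 at 238, 225 and 239.5 CPM in shControl and 133, 131 and 141 CPM in shOpa1 (log2 fold change -0.79 ± 0.0588, edgeR adjusted p = 0.000120). Vav2, an exchange factor recruited by Eph receptors, was at 47.9, 47.5 and 50.2 CPM in shControl and 20.7, 20.7 and 24.7 CPM in shOpa1 (log2 fold change -1.14 ± 0.0884, edgeR adjusted p = 0.000147). Ablim1, an actin-binding protein placed in netrin signalling, was at 154, 147 and 124 CPM in shControl and 57.9, 49.2 and 45.8 CPM in shOpa1 (log2 fold change -1.47 ± 0.116, edgeR adjusted p = 0.000153). With the block 33 effectors were lower and 10 higher, beside 30.7% and 28.8%. The 5 effectors called higher went to 2 without shControl replicate 1, shControl replicate 2 or shOpa1 replicate 1, and to 3 without shOpa1 replicate 2 or 3. The share of all genes called in those fits is not given here.

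Of 41 co-receptors, adhesion partners and sheddases tested, 14 fell and 2 rose, with a median of -0.37, beside 20.0% and 18.9% of all genes tested. With the block 25 were lower and 4 higher, beside 30.7% and 28.8%. Cntn2, an axonal adhesion molecule, was at 95.6, 109.7 and 107 CPM in shControl and 32.3, 33.9 and 39.3 CPM in shOpa1 (log2 fold change -1.56 ± 0.0961, edgeR adjusted p = 6.96e-05). L1cam, which joins Nrp1 in the Sema3a receptor, was at 1014, 1090.0 and 1072 CPM in shControl and 670.5, 654 and 733 CPM in shOpa1 (log2 fold change -0.63 ± 0.0666, edgeR adjusted p = 0.000510), and its relative Chl1 at 881, 897 and 773 CPM in shControl and 489.6, 487 and 381 CPM in shOpa1 (log2 fold change -0.91 ± 0.113, edgeR adjusted p = 0.000968). Lrig2, which protects Neo1 from cleavage, rose and was at 32.7, 29.7 and 33.0 CPM in shControl and 51.6, 48.6 and 50.6 CPM in shOpa1 (log2 fold change 0.66 ± 0.0690, edgeR adjusted p = 0.000472). Without shControl replicate 2, shOpa1 replicate 1 or shOpa1 replicate 2, the partners called lower were 9, 8 and 8, with no share of all genes given for those fits.

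In the authors' deposited table of the same comparison, 47 members were lower and 5 higher at an adjusted p under 0.05. These were among 72 members with an adjusted p there, and the share of all genes called in that table was not counted. The authors' deposited table and the edgeR fit shared 34 of the 35 calls made here, and no member called here had the opposite sign there. Efna4 was the exception, with an adjusted p of 0.106 in the authors' deposited table. The other members called there were not called in the main fit here, which leaves out the replicate number. With that number as a block, 50 members were lower and 6 higher here, beside 30.7% and 28.8% of all genes tested. Both analyses rest on the same libraries, so the shared calls are not independent.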

How the data were processed

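RNA sequencing counts per gene of 6 libraries (3 shControl, 3 shOpa1) were used. Per the file headers, the authors made the deposited raw counts with featureCounts 1.6.0, counting read pairs against the GRCm38 annotation of Ensembl release 99, and the command in the header sets no option on strand, multi-mapping reads or reads shared by several genes. The libraries came from a stranded mRNA kit, per the labels' protocols, so reads of overlapping genes on opposite strands cannot be told apart in these counts. HISAT2, DESeq2 and mm10 are named without further versions, per the submitters' processing notes. The deposited table of the authors' comparison gives a log2 fold change and an adjusted p-value per gene, and its values are named as the authors' where printed.

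Titles in the labels gave the groups and the replicate numbers. Counts were tested in R 4.3.3 by edgeR 4.0.16, using TMM factors, the default low-count filter, robust quasi-likelihood dispersion and Benjamini-Hochberg adjustment over 16562 genes at 0.05. CPM use TMM-scaled library sizes, a standard error is the absolute log2 fold change over the root of F, and pair differences use log2(CPM + 0.5). Other fits used RLE or upper-quartile factors, no filter, a mean of at least 50 counts, DESeq2 1.42.0, limma-voom (limma 3.58.1), the replicate number as a block, replicate 3 as a second batch, replicates 1 and 2 alone, and each library left out in turn. After subtracting the group means, log2 CPM correlated at 0.595, 0.608 and 0.714 between libraries of the same number and at most at 0.154 otherwise. The numbers were therefore taken as pairs in the pair differences and in the block fit. The main fit, which gives the calls, did not use them. Libraries of a group differed by more than sampling noise (chi-square per degree of freedom 6.11 to 30.8), so none was counted as a repeat. Symbols came from a reference table. Some of the fits were also run on simulated counts. These held no replicate effect, so they cannot decide between the fits with and without the block.

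The 75 members, the gene lists and the tests were chosen with earlier results of these data known, and the naming rule was any member, with values in every library mainly for up to 4 of each family with the smallest p, Opa1, and up to 4 genes of each of the 2 lists of effectors and partners with the smallest p. Values per library of other members, such as Sema4a, Ntng2 and Rgmb, were chosen after they were seen, as were the background at 10 CPM, the length classes and the split by 3' UTR sequence. UTRs are the longest of each gene's protein-coding transcripts in GENCODE release M21, of at least 50 bases. The result of 1 list of cell type markers is not reported here.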

Additional observations from a re-analysis of the deposited data

How the results depend on the processing

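All 35 called members kept their sign in the 15 alternative settings that tested them, and 23 stayed called in each. The other 12 lost their call in at least 1 setting, and 23 members that were not called passed in at least 1. Of the alternative values per gene, 916 kept their side of the threshold and direction, 46 lost a call, 78 gained one and 19 changed sign.

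With the replicate block, for the pairing given above, 5081 of all genes were lower and 4770 higher, and among the members 50 lower, with 24 ligands lower and 5 higher and 26 receptors lower. Effectors called higher were then 10, and partners 25 lower and 4 higher. Replicate 3 as a second batch gave 50 members, 24 ligands, 26 receptors and 25 partners lower, and 10 effectors and 4 partners higher. Replicates 1 and 2 alone gave 49 members, 25 ligands and 24 partners lower, and 5 ligands and 8 effectors higher. Of the genes tested in replicates 1 and 2 alone, 26.1% were lower and 24.8% higher. Upper-quartile factors gave 8 effectors higher. The share of all genes called with the second batch, with upper-quartile factors or with a library left out is not given here. Member and list counts from those fits therefore stand without a background. The block ended no call among the members.

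With 1 library left out, effectors called higher ranged from 2 to 6 and partners called lower from 8 to 19. The median log2 fold change ranged from -0.60 to -0.37 over the members, from -0.56 to -0.33 over the ligands and from -0.63 to -0.50 over the receptors. Leaving out a library changed the sign of 9 members that were not called, with log2 fold changes from -1.26 to 0.32 for Efna1, -0.44 to 0.20 for Efna2, -0.107 to 0.0316 for Epha7, -0.0318 to 0.262 for Ntng1, -0.0129 to 0.0402 for Rgmb, -0.22 to 0.37 for Sema3d, -0.92 to 0.29 for Sema4a, -0.14 to 0.31 for Slit2 and -0.0985 to 0.0155 for Robo1. Epha7 was at 0.0149 with upper-quartile factors and Sema3d at -0.0104 in replicates 1 and 2 alone. The cause was not tested. No scaling moved the median of all genes tested beyond 0.04. At the lowest levels, such as Efna1 with 6 to 41 counts per library, depth limits what can be detected.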
